A study of Mus musculus with 6 samples.

Results

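The nuclear genome encodes every subunit of respiratory complex II and all but a few subunits of complexes III, IV and V. Transcripts of 38 such subunits were compared between K68R and WT mouse embryonic fibroblasts. The 38 were picked by symbol from the 50763 genes of the count table, and comprised 4 subunits of complex II, 9 of complex III, 10 of complex IV and 15 of complex V. They lie on 16 chromosomes. Embryonic fibroblasts are the mesenchymal cells that grow out of a dissociated embryo body. Each genotype had 3 libraries of poly(A) RNA from cells that were taken at E13.5 (embryonic age in days) on a C57BL/6 background (the C57BL/6J strain) and kept in culture for a short time. The K68R cells carry a CRISPR knock-in that replaces a lysine of SOD2 by arginine, and the WT cells carry no such change. SOD2 resides in the mitochondrial matrix and converts superoxide, a by-product of electron transfer, to hydrogen peroxide. The labels do not say whether the knock-in is homozygous, whether it came from a single founder, or whether the libraries of a genotype came from separate embryos or cultures. P-values here therefore measure only the spread between these libraries, which may be technical.

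Complex II (succinate dehydrogenase) and complex I pass electrons to ubiquinone, complex III passes them on to cytochrome c, and complex IV (cytochrome c oxidase) hands them to oxygen. Complexes III and IV pump protons out of the matrix, and complex V (ATP synthase) lets the protons back in to drive ATP formation. Complexes III, IV and V mix nuclear subunits, which are imported, with subunits made inside the mitochondrion, and fibroblasts in culture express the non-muscle forms of the subunits that have tissue variants.

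Library totals ran from 26200088 to 40691447 counts of read pairs, and 3 counts corresponded to 0.0728 to 0.116 CPM, the counts divided by TMM-scaled library sizes (edgeR). Of 16730 genes tested, 81.4% differed between the genotypes at a Benjamini-Hochberg adjusted p under 0.05 (edgeR) and libraries of a genotype varied little (common biological coefficient of variation 2.19%). Sod2 itself was 1.49-fold lower in K68R (adjusted p = 2.96e-23, edgeR), and its counts do not separate the knock-in codon from the WT codon. Over all genes, 40.8% were called higher and 40.5% lower, which is the background for the marker counts below. Of 10 fibroblast markers 5 were higher, 4 lower and 1 not called. They summed to 18550 to 18590 CPM in K68R and 9421 to 9591 CPM in WT, but per kilobase of exon the sums overlapped (5226 to 5269 against 5188 to 5345). All 10 skeletal muscle markers were higher in K68R (summed 280.1 to 280.9 against 92.5 to 95.5 CPM) and all 8 adipocyte markers were lower (62.8 to 68.5 against 238 to 251 CPM). With the exon length and GC offsets described below, 9 muscle markers were higher and 1 lower, and all 8 adipocyte markers stayed lower. Of 7 epithelial markers 6 were lower (24.8 to 26.4 against 52.3 to 54.5 CPM), and the 10 macrophage markers, of which 2 were higher and 4 lower, summed to 153 to 158 against 168 to 171 CPM. Of 7 endothelial markers 6 were tested and 3 were higher (96.9 to 98.9 against 25.4 to 27.7 CPM), and of 7 neural markers 6 were tested, with 4 higher and 2 lower (55.1 to 57.5 against 33.8 to 35.9 CPM). The 7 erythroid markers, of which 1 was tested and not called, summed to 0.705 to 0.814 against 0.835 to 1.22 CPM. No marker of these 8 lists was at 0 in every library, and their part in the results that follow was not tested. In bulk libraries, fewer cells of a type and less RNA per cell cannot be told apart.

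Every one of the 38 subunit transcripts was lower in K68R. All 38 passed the filter on low counts and all 38 fell by the edgeR test (adjusted p under 0.05, Benjamini-Hochberg over the whole table), against 40.5% of all genes. None was higher, against 40.8% of all genes. In all 38 the 3 K68R values lay below the 3 WT values without overlap, which held for 41.0% of all genes, and in none did they lie above, which held for 41.3%. The decrease was modest, with a median log2 fold change (K68R against WT) of -0.58, or 1.5-fold lower, while the median of all genes tested was -0.01. It ran from -0.97 for Atp5mc2, a gene for the rotor ring of ATP synthase, to -0.18 for Atp5f1d, a subunit of its central stalk. Against a bound of 1.5-fold, 15 of the 38 were lower (edgeR), where 14.9% of all genes were. Together the 38 genes held 0.655%, 0.654% and 0.636% of all counts in K68R and 0.964%, 0.963% and 0.945% in WT.

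Each complex stood at a similar fraction of its WT level. Summed over its 4 subunits, complex II stood at 607, 602 and 596 CPM in K68R and 855, 873 and 852 CPM in WT. Complex III summed to 933, 943 and 914 CPM in K68R and 1343, 1351 and 1315 CPM in WT, and complex IV to 1286, 1289 and 1245 CPM in K68R and 1816, 1816 and 1750.0 CPM in WT. Complex V, with the most subunits counted, had the largest sum, at 3824, 3817 and 3702 CPM in K68R and 5500.0, 5462 and 5387 CPM in WT. The K68R mean was 70.0% of the WT mean for complex II, 69.6% for complex III, 71.0% for complex IV and 69.4% for complex V. The median log2 fold changes were -0.52, -0.58, -0.52 and -0.64 in that order, and differences between complexes were not tested. For comparison, 36 of 37 nuclear subunits of complex I were lower and 1 was higher (edgeR), with a median of -0.57.

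**Figure D1:**
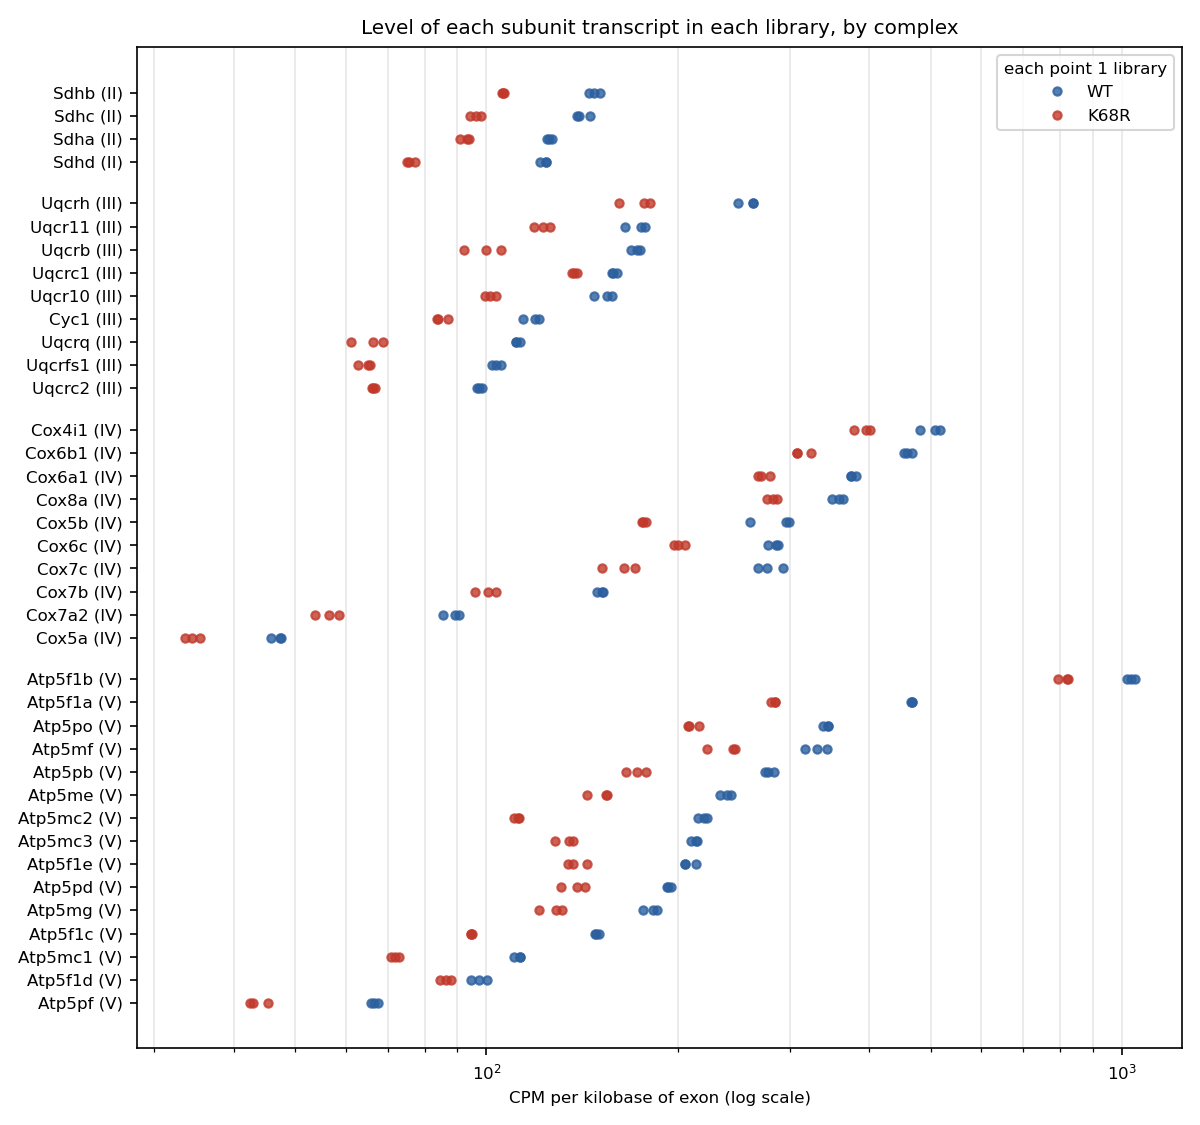
Level of each of the 38 subunit transcripts in CPM per kilobase of exon (log axis), with each point 1 library, WT in blue and K68R in red, grouped by complex and ordered by the WT mean. In all 38 rows the 3 red points lie to the left of the 3 blue points, and Atp5f1b has the highest level in both genotypes.

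These are short transcripts, and short transcripts were lower in K68R across the whole table. The median member had 895 exonic bases against 3519 for all genes tested, and 34 of the 38 had fewer than 2000. Among all 4362 tested genes with fewer than 2000 exonic bases the median log2 fold change was -0.43, and 56.7% were called lower (edgeR). When exon length and GC content were entered as offsets, so that each library's dependence on them was removed, the median of the 38 became -0.13 and that of all genes -0.07. With these offsets 26 of the 38 remained lower, against 42.5% of all genes, 3 were higher, against 33.7% of all genes, and 9 were not called (edgeR). The 3 that turned higher were Cox4i1, Cox6c and Atp5pd, at log2 fold changes of 0.13, 0.13 and 0.11. The adjusted medians were -0.15 for complex II, -0.22 for complex III, -0.08 for complex IV and -0.20 for complex V. How much of the decrease goes with length and GC content, and how much with genotype alone, cannot be told apart, since the dependence itself differed between the genotypes. In a fit restricted to genes under 2000 exonic bases, 23 of the 34 short members were lower, against 30.9% of such genes, and 4 were higher, against 33.4% (edgeR).

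**Figure D2:**
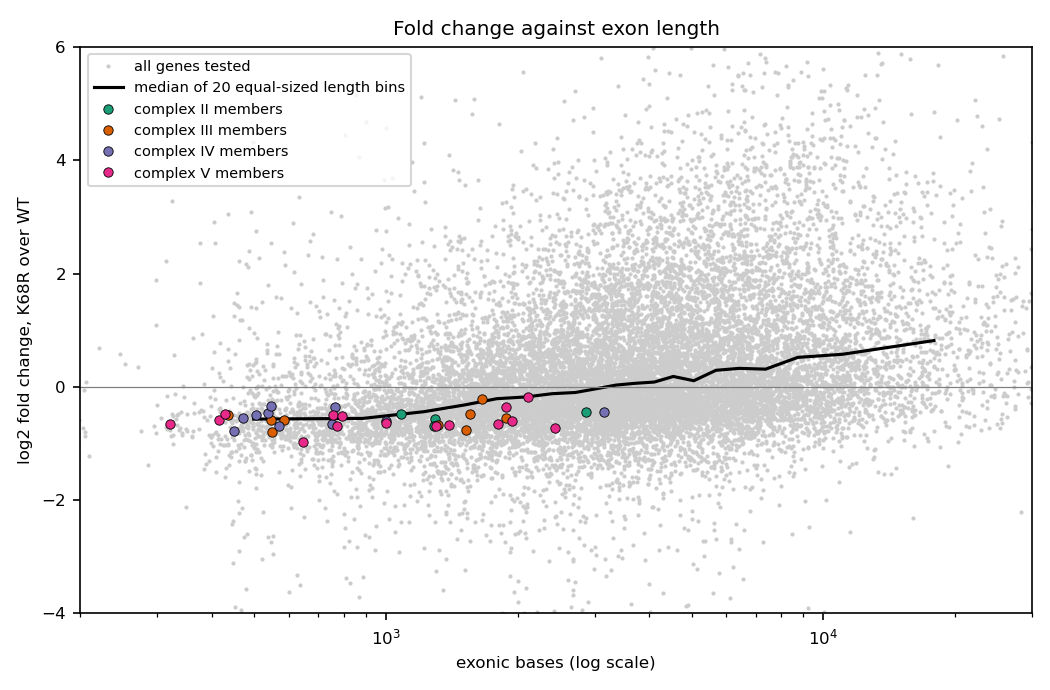
Log2 fold change (K68R over WT) against exonic bases (log axis) for all genes tested (grey, with 382 genes outside the axes), with the subunits of complexes II to V coloured and a black line through the medians of 20 equal-sized length bins. All 38 coloured points lie below 0, and the black line climbs with length.

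**Figure D3:**
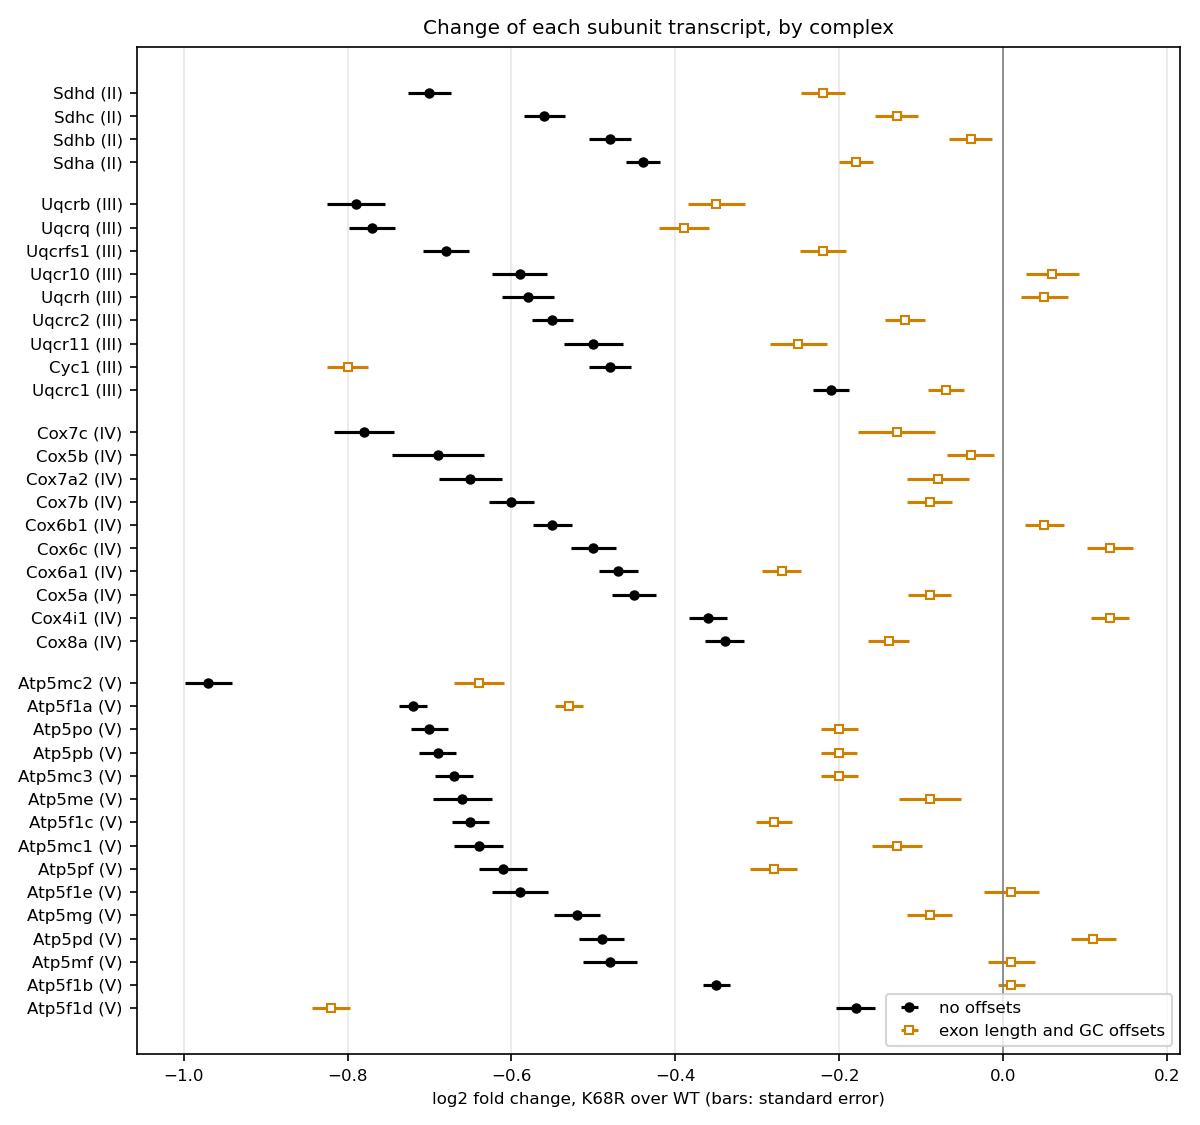
Log2 fold change (K68R over WT) of each subunit transcript with its standard error, without offsets (black circles) and with exon length and GC offsets (open orange squares), ordered within each complex. All 38 circles lie below 0, while the squares gather between -0.40 and 0.13 except for Cyc1, Atp5mc2, Atp5f1a and Atp5f1d.

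Promoters of respiratory genes are known for binding sites of NRF1, of the ETS family factor GABP (NRF2) and of NF-Y, and were examined because these genes moved together. RefSeq windows from 250 bases before to 50 bases after the start site (build GRCm38.p6) were at hand for 30 of the 38 genes and for 27025 genes in all. The NRF1 pattern, GCGC, any 2 bases and GCGC, which reads alike on both strands, was in 9 of the 30 windows (30.0%) and in 6.43% of all windows. The ETS pattern CCGGAAG, on either strand, was in 11 (36.7%) and in 9.12% of all. CCAAT, the core bound by NF-Y, was in 16 (53.3%) against 37.9%, and GGGCGG, the core bound by SP1, in 10 (33.3%) against 35.9%. The YY1 pattern AAGATGGC was in 2 (Atp5pb and Atp5mf) against 2.88%, and TATAAA in 1 (Atp5mg) against 14.2%. Members with the NRF1 pattern had a median log2 fold change of -0.66 and those without it -0.59, and the medians with and without the ETS pattern were -0.52 and -0.64. A match of letters is a description only.

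The 120 bases before the start site are printed for the 3 genes of subunit c, whose changes differed, and for 5 genes that show the patterns in the other complexes or outside subunit c. All 8 genes lie on the minus strand and are written 5′ to 3′ in the direction of transcription, with Atp5mc1 at chr11:96075632-96075751, Atp5mc2 at chr15:102671048-102671167, Atp5mc3 at chr2:73911327-73911446, Sdha at chr13:74350241-74350360, Sdhd at chr9:50603850-50603969, Uqcr11 at chr10:80406822-80406941, Cox6b1 at chr7:30626115-30626234, and Atp5me at chr5:108434400-108434519 (GRCm38.p6). Capitals mark matches of the NRF1 pattern, CCGGAAG (or CTTCCGG) and CCAAT (or ATTGG), and in Atp5mc1 a forward and a reverse match overlap in the first capital run.
Atp5mc1: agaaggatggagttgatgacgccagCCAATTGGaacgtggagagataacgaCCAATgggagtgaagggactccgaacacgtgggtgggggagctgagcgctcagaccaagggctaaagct
Atp5mc2: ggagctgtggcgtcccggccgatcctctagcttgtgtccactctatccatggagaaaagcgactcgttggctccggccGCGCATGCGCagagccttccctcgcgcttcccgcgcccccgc
Atp5mc3: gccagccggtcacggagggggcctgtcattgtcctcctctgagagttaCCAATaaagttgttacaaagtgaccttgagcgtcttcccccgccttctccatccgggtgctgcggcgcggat
Sdha: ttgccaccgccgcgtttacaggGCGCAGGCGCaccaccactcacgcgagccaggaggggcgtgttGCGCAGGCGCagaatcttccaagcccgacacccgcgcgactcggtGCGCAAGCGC
Sdhd: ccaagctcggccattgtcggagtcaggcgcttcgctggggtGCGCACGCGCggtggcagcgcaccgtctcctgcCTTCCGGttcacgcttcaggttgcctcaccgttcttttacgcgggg
Uqcr11: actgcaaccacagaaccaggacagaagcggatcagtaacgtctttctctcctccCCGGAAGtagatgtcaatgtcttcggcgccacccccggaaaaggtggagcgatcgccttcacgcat
Cox6b1: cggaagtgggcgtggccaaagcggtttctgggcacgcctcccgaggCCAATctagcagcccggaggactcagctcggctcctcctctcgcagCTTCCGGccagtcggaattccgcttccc
Atp5me: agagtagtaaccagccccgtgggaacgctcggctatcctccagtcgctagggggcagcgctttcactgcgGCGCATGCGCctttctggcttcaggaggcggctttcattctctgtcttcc
Subunit c thus has an NRF1 pattern before the start of Atp5mc2, 42 bases upstream, where Atp5mc1 and Atp5mc3 have CCAAT in the same stretch. Atp5mc3 holds an NRF1 match further on, 13 bases after its start, outside the bases printed. Sdha carries 3 NRF1 matches in the stretch, Sdhd and Atp5me carry 1 each, and Uqcr11 and Cox6b1 carry ETS matches without one.

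Complex II oxidises succinate in the citric acid cycle. Sdha is its flavin-bearing catalytic subunit, Sdhb carries the iron-sulfur clusters, and Sdhc and Sdhd anchor the enzyme in the membrane and bind its haem. Per kilobase of exon Sdhb was the most abundant (chromosome 4, 140688582 to 140706509, plus strand, mm39), at 106, 106 and 106 CPM per kilobase in K68R and 145, 151 and 148 CPM per kilobase in WT. Its 3 K68R libraries were almost alike, and its log2 fold change was -0.48 (SE 0.0258, adjusted p = 5.46e-27, edgeR). Sdhd, the smaller anchor, had the largest decrease of the complex and was the only subunit of it that was lower against the 1.5-fold bound (adjusted p = 1.09e-05, edgeR). Its level was 99.1, 96.2 and 96.9 CPM in K68R and 159, 159.6 and 156 CPM in WT, a log2 fold change of -0.70. The order of the 4 levels, from Sdhb through Sdhc and Sdha to Sdhd, was the same in both genotypes. With the length and GC offsets Sdhd changed by -0.22, Sdha by -0.18 and Sdhc by -0.13, and Sdhb, at -0.04, was not called (adjusted p = 0.211, edgeR).

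Complex III catalyses electron transfer through Cyc1, which is cytochrome c1, through the Rieske iron-sulfur protein Uqcrfs1, and through a cytochrome b that mitochondrial DNA encodes. Cyc1 stood at 135, 130.2 and 129.9 CPM in K68R and 185, 188 and 178 CPM in WT, and Uqcrfs1 at 86.0, 85.6 and 82.5 against 136, 138 and 134 CPM. In both genes the groups were well separated, with log2 fold changes of -0.48 for Cyc1 and -0.68 for Uqcrfs1. The core proteins Uqcrc1 and Uqcrc2, which face the matrix and resemble processing peptidases, differed in size of change. Uqcrc1 (chromosome 9, 108765716 to 108778709, plus strand) had one of the 3 smallest decreases among the 38, at 227, 229.5 and 225 CPM in K68R and 261, 266 and 262 CPM in WT. That was a log2 fold change of -0.21 (SE 0.0216, adjusted p = 6.98e-14, edgeR), while Uqcrc2 changed by -0.55 and shares 26.7% of its exonic bases with Pdzd9.

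The small supernumerary subunits of complex III included its strongest decreases. Uqcrb, which helps to form the ubiquinone site (chromosome 13, 67048640 to 67053414, minus strand), was at 54.6, 57.8 and 50.6 CPM in K68R and 92.6, 94.6 and 95.4 CPM in WT. Its log2 fold change was -0.79 (SE 0.0352, adjusted p = 1e-30, edgeR), the second largest of the 38. Uqcrq, another small subunit beside cytochrome b, was at 93.4, 105 and 101 against 172, 169.7 and 169.8 CPM, a log2 fold change of -0.77. The lowest K68R library of Uqcrq and that of Uqcrb were not the same one. Uqcrh, the acidic hinge protein that helps to dock cytochrome c (chromosome 4, 115924162 to 115932267, minus strand), had the highest level per exon length of the complex. It stood at 177, 181 and 162 CPM per kilobase in K68R and 263, 262 and 249 in WT, a log2 fold change of -0.58. Uqcr10 and Uqcr11, at the rim of the complex, changed by -0.59 and -0.50. With offsets Uqcrh and Uqcr10 turned to 0.05 and 0.06 and were not called (adjusted p = 0.117 and 0.12, edgeR), while Uqcrq, Uqcrb and Uqcr11 stayed lower at -0.39, -0.35 and -0.25. Cyc1, the subunit of the complex with the most G and C (59.9%), went the other way and became the most decreased of it, at -0.80. That value may depend on how GC content was taken, which was not varied. Uqcr11, with 59.2% G and C, had moved up from -0.50.

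Complex IV takes its catalytic core from mitochondrial DNA, and the nuclear subunits surround and stabilise that core. Cox4i1, which binds adenine nucleotides (chromosome 8, 121394964 to 121400948, plus strand), was the most abundant per exon length, at 395, 402 and 379 CPM per kilobase in K68R and 507, 517 and 481 in WT. The third library was the lowest of each genotype, and the log2 fold change was -0.36 (SE 0.0232, adjusted p = 2.63e-18, edgeR). Cox8a, the ubiquitous form of a small membrane subunit (chromosome 19, 7192523 to 7194981, minus strand), had the third smallest decrease of the 38. It was at 151, 156 and 154 CPM in K68R and 196, 199 and 191 CPM in WT, a log2 fold change of -0.34 (SE 0.0239, adjusted p = 3.13e-21, edgeR). At the other end stood Cox7c, a small subunit that spans the membrane (chromosome 13, 86192917 to 86194914, minus strand), at 73.9, 76.8 and 68.3 CPM in K68R and 132, 120.1 and 124 CPM in WT. Its log2 fold change was -0.78 (SE 0.0366, adjusted p = 3.48e-18, edgeR), and the first WT library stood above the other 2.

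Among the remaining subunits of complex IV, the zinc-binding Cox5b varied most between libraries. It was at 101, 99.9 and 100.4 CPM in K68R and 170.0, 169 and 148 CPM in WT, so that the third WT library stood apart from the other 2, and its adjusted p of 1.29e-05 (edgeR) was the largest of the 38. A processed copy in the annotation, Cox5b-ps, took counts equal to 10.2% of those of Cox5b, so the split between them is uncertain. Cox7a2, the non-muscle form of subunit 7a, changed by -0.65, with 28.5% of its exonic bases shared with Gm51685. Cox7b and Cox6c, which lie in the membrane, changed by -0.60 and -0.50, and Cox6b1, which faces the space between the membranes and bridges the dimer, by -0.55. Cox6a1 and Cox5a changed by -0.47 and -0.45. With the offsets 5 of the 10 stayed lower (edgeR), where 42.5% of all genes were lower, so the count is near the background. These were led by Cox6a1 at -0.27 and Cox8a at -0.14. Another 2, Cox4i1 and Cox6c, were higher, where 33.7% of all genes were. Cox5b at -0.04, Cox6b1 at 0.05 and Cox7a2 at -0.08 were not called, with adjusted p = 0.158, 0.0705 and 0.0547 (edgeR).

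In complex V the catalytic head is a ring of alpha subunits (Atp5f1a) and beta subunits (Atp5f1b) around a shaft of gamma, delta and epsilon (Atp5f1c, Atp5f1d and Atp5f1e). Atp5f1b (chromosome 10, 127919176 to 127926257, plus strand) was the most abundant of all 38, at 821, 821 and 792 CPM per kilobase in K68R and 1047, 1032 and 1019 in WT. It changed by -0.35 (SE 0.0168, adjusted p = 1.44e-29, edgeR). Atp5f1a, the next most abundant of the complex, was at 285, 285 and 281 CPM per kilobase in K68R and 467, 467 and 466 in WT, a log2 fold change of -0.72 (SE 0.0174, adjusted p = 2.27e-47, edgeR). The 3 WT values of Atp5f1a were nearly identical, and its adjusted p was the smallest of the 38. Although the protein ring holds alpha and beta in equal number, the transcript ratio of beta to alpha per exon length was 2.86 in K68R and 2.21 in WT. On the log2 scale the ratio was 1.52 ± 0.0181 in K68R and 1.14 ± 0.0178 in WT (SD, n = 3), and this ratio was chosen after its values were seen.

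The shaft subunits spanned a wide range. Atp5f1c changed by -0.65 and Atp5f1e by -0.59. Atp5f1d (chromosome 10, 79974451 to 79981662, plus strand) had the smallest decrease of the 38, at 183, 178 and 186 CPM in K68R and 206, 212 and 200.1 CPM in WT. The groups were close but did not overlap, and the log2 fold change was -0.18 (SE 0.0237, adjusted p = 5.63e-10, edgeR). With the offsets Atp5f1d went to -0.82, the largest adjusted decrease of the 38. It and Cyc1 were the only members that the offsets lowered further. The adjusted values of both may depend on how GC content was taken, and other ways were not tried. With 59.3% Atp5f1d is among the members richest in G and C, but Cox6a1, with 60.9%, moved up from -0.47 to -0.27. Atp5f1b and Atp5f1e were both at 0.01 with offsets and were not called (adjusted p = 0.493 and 0.804, edgeR), whereas Atp5f1a stayed at -0.53 and Atp5f1c at -0.28.

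The peripheral stalk, which holds the head still while the rotor turns, changed as a group of 4 with a median of -0.65. Atp5po, the OSCP protein at the top of the stalk, changed by -0.70 and Atp5pb, subunit b, by -0.69. Atp5pf, coupling factor 6, changed by -0.61, with 11.6% of its exonic bases shared with Gabpa, and Atp5pd, subunit d, by -0.49. With offsets the first 3 stayed lower, at -0.20, -0.20 and -0.28, and Atp5pd was higher at 0.11 (adjusted p = 4.55e-04, edgeR). The small membrane subunits Atp5me, Atp5mf and Atp5mg, of which the first and last help the enzyme to form dimers, changed by -0.66, -0.48 and -0.52. Atp5mg shares 11.6% of its exonic bases with Gm30934. With offsets Atp5me and Atp5mg stayed at -0.09 each, and Atp5mf, at 0.01, was not called (adjusted p = 0.697, edgeR).

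Subunit c forms the proton-driven rotor ring, and Atp5mc1, Atp5mc2 and Atp5mc3 encode the same mature protein behind different import sequences. Atp5mc2 (chromosome 15, 102571303 to 102579482, minus strand) had the largest decrease of the 38, at 72.9, 72.7 and 71.4 CPM in K68R and 139, 144 and 142 CPM in WT. The K68R libraries averaged 72.3 ± 0.814 CPM and the WT libraries 142 ± 2.37 CPM (SD, n = 3), which is 1.96-fold lower, or -0.97 on the log2 scale (SE 0.0287, adjusted p = 4.73e-42, edgeR). It was lower with the offsets too, at -0.64 (adjusted p = 3.71e-29, edgeR). Atp5mc1 and Atp5mc3 changed by -0.64 and -0.67, and by -0.13 and -0.20 with offsets. The mix of the 3 genes differed between the genotypes in every library. Atp5mc2 made up 35.1%, 35.3% and 35.4% of the summed subunit c level per exon length in K68R and 39.7%, 40.5% and 40.7% in WT. The share of Atp5mc3 was 42.1 ± 0.776% in K68R and 39.1 ± 0.352% in WT, and that of Atp5mc1 was 22.7 ± 0.642% and 20.6 ± 0.176% (SD, n = 3). None of the 3 shares overlapped between genotypes. Each gave p = 0.1 in a two-sided exact permutation test, or 0.12 after Benjamini-Hochberg adjustment over 6 ratios. The unadjusted value is the smallest that 3 against 3 libraries allow. The shares add up to the whole in each library, so they are not separate results. The 6 ratios included Atp5f1b to Atp5f1a and Cox6b2 to Cox6b1, both chosen after their values were seen.

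**Figure D4:**
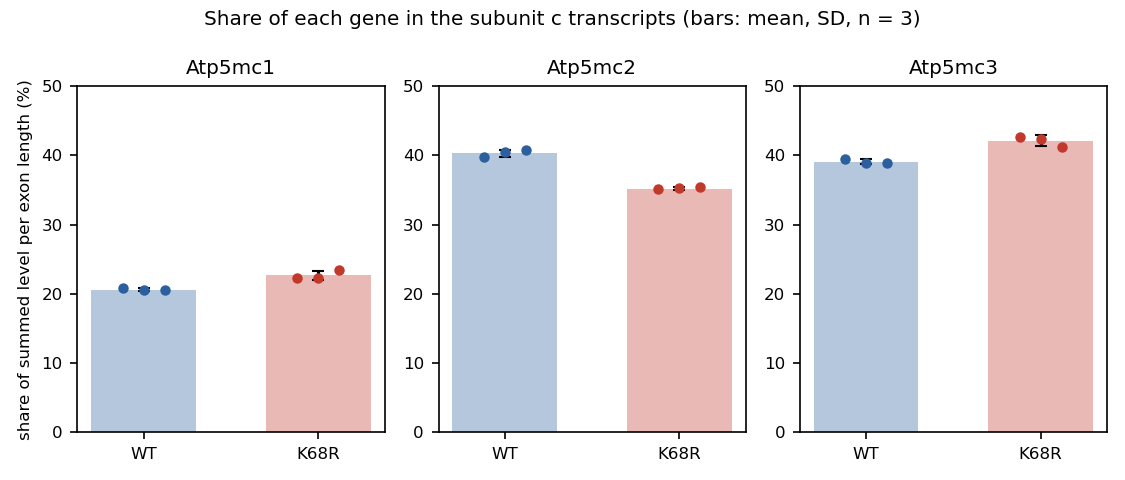
Share of Atp5mc1, Atp5mc2 and Atp5mc3 in their summed level per exon length (%), with bars for the mean, error bars for the SD (n = 3) and each point 1 library, WT in blue and K68R in red. The Atp5mc2 share is lower in the 3 K68R libraries (35.1% to 35.4%) than in the 3 WT libraries (39.7% to 40.7%), and the other 2 shares are higher.

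Within the 38 genes the size of the decrease was weakly correlated with length, GC content and level. Across these genes, which are not independent replicates and share the same 6 libraries, the log2 fold change had a Pearson correlation of 0.21 with log2 exonic bases and 0.32 with GC content. With the WT level per exon length it was 0.05, and with the fold change after offsets 0.17 (Spearman 0.14, 0.30, 0.02 and 0.37). Annotated copies were searched for only by a member's current or earlier symbol with the ending -ps, so copies under other names were not covered. They were found for 7 members in 13 rows. Apart from Cox5b-ps, Atp5k-ps2 at 3.02% of the counts of Atp5me and Atp5pb-ps at 2.39% of those of Atp5pb, each held under 1% of its member's counts.

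Tissue variants of complex IV subunits were at low levels, and 1 of them rose. Cox6b2, the form known from testis, was at 11.7, 11.5 and 12.6 CPM in K68R and 2.91, 2.78 and 3.04 CPM in WT. It was 4.09-fold higher (log2 fold change 2.03, SE 0.103, adjusted p = 2.16e-28, edgeR), and 2.54 on the log2 scale with offsets. Its ratio to Cox6b1 per exon length, chosen after its values were seen, was 0.0616 in K68R and 0.0103 in WT. Cox8b, a muscle and brown fat form, had 4 counts over the K68R libraries and 178 over the WT libraries, which is 36.9-fold lower (95% interval 14.2 to 137 by the exact binomial method, for counting error alone). In the same libraries summed adipocyte markers were lower and summed skeletal muscle markers higher, as given above, and their part in the Cox8b value was not tested. Cox6a2, another muscle form, was at 0.271, 0.0321 and 0.616 CPM in K68R and 0.703, 0.512 and 0.805 CPM in WT. These values overlapped, and its adjusted p of 0.0202 (edgeR) became 0.186 without the second K68R library, 0.0739 without the first K68R library, and 0.0594 and 0.0572 without the first and the third WT library. Cox4i2, the form associated with low oxygen, was at 0.357 to 1.03 CPM in K68R and 0.608 to 1.14 CPM in WT and was not called (adjusted p = 0.534, edgeR). Cox7a1 was too low to test, and Cox7b2, Cox8c and the testis cytochrome c Cyct had 0 counts in every library, which allows up to 0.116 CPM.

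Of the 6 associated subunits 5 were lower and 1 was not called (edgeR), and cytochrome c was lower too. Of all genes 40.5% were lower, and of those under 2000 exonic bases 56.7%. Cycs, the somatic cytochrome c that shuttles between complexes III and IV, was at 65.9, 67.1 and 66.8 CPM in K68R and 120, 118 and 120 CPM in WT, a log2 fold change of -0.84 (SE 0.0300, adjusted p = 2.66e-37, edgeR). With offsets it was at -0.49. Cox7a2l changed by -0.84 and by -0.33 with offsets. Ndufa4, which associates with complex IV, changed by -0.53, and with offsets it was at 0.04 and not called (adjusted p = 0.109, edgeR). Atp5if1, the inhibitor of ATP hydrolysis by complex V, and the small ATP synthase proteins Atp5mj and Atp5mk changed by -0.73, -0.73 and -0.46, and had no GC value. Dmac2l, linked to ATP synthase, was not called at -0.14 (adjusted p = 0.217, edgeR). With offsets it was called higher, at 0.25 (adjusted p = 0.0226, edgeR).

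Of 37 assembly factors 35 were tested, and 32 were lower, none higher and 3 not called (edgeR), with a median of -0.47. Of all genes 40.5% were lower and 40.8% higher. With offsets 17 of the 35 were lower and 6 higher, where 42.5% and 33.7% of all genes were, and the median of -0.08 was near the -0.07 of all genes. Cmc2, a twin-cysteine protein needed for complex IV, averaged 7.47 ± 0.642 CPM over the K68R libraries and 18.6 ± 1.34 CPM over those of WT (SD, n = 3), a log2 fold change of -1.31 and of -1.24 with offsets. Cox17, the copper chaperone of complex IV, changed by -0.80, and Coa3, which attends the synthesis of COX1, by -0.66. Tmem242, which takes part in ATP synthase assembly, changed by -0.91, Atpaf2, a chaperone of the alpha subunit, by -0.47, and Atpaf1, a chaperone of the beta subunit, by -0.39. For complex III, Uqcc1, Uqcc2 and Bcs1l, of which the last inserts the Rieske protein, changed by -0.63, -0.60 and -0.53. For complex II, Sdhaf2, which helps Sdha to take up its flavin, and Sdhaf1, which serves the iron-sulfur subunit, changed by -0.39 each, and Sdhaf4 by -0.71. None of these 3 was called with offsets.

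Of the 6 mitochondrially encoded partners 2 were higher, 1 lower and 3 not called (edgeR), where 40.8% of all genes were higher and 40.5% lower. The 6 had no GC value. CYTB, the cytochrome b of complex III, was at 2689 to 2771 CPM in K68R and 2270.0 to 2338 CPM in WT, a log2 fold change of 0.23 (adjusted p = 2.36e-21, edgeR). COX1 of complex IV was at 5544 to 5732 CPM in K68R and 6410.0 to 6669 CPM in WT, a log2 fold change of -0.21 (adjusted p = 1.79e-20, edgeR). COX2 was called higher at 0.36 (adjusted p = 0.00441, edgeR) with overlapping values, and the call was lost without the first K68R library (0.157) and without the first WT library (0.0541). COX3, ATP6 and ATP8 were not called (adjusted p = 0.723, 0.39 and 0.871, edgeR). These 4 genes held between 0.384 and 8.87 CPM where COX1 held at least 5544 CPM, so their values are uncertain, and the difference between nuclear and mitochondrial subunits was not tested. Multi-mapped reads were not counted, and the part of this in the level of any of the 6 genes was not tested.

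Of 10 transcriptional regulators of these genes 5 were higher, 4 lower and 1 not called (edgeR), where 40.8% of all genes were higher and 40.5% lower, so the counts are near the background. With offsets 3 were higher and 6 lower, where 33.7% and 42.5% of all genes were. Pprc1, a coactivator related to PGC-1, was at 101, 105 and 106 CPM in K68R and 20.2, 22.3 and 18.5 CPM in WT, a log2 fold change of 2.36 and of 0.68 with offsets. Yy1, a zinc finger factor, was at 147, 144 and 145 against 51.7, 49.8 and 50.3 CPM, a log2 fold change of 1.52 and of 1.11 with offsets. Esrra, the oestrogen-related receptor alpha, changed by 1.21 and by 0.58 with offsets. Nrf1 and Gabpa, whose patterns are in the printed promoters, and Tfam, which packages mitochondrial DNA, were named after their values were seen. Their log2 fold changes were -0.49, -0.53 and -0.96, and with offsets -1.64, -0.33 and -0.66. In the rest of the list Gabpb2 and Ppargc1b were higher, at 0.20 and 2.05, and Gabpb1 was lower at -0.38. Ppargc1a was not called at 0.25 (adjusted p = 0.108, edgeR). With offsets Gabpb2, Ppargc1b, Gabpb1 and Ppargc1a were at -0.22, -0.68, -0.92 and -0.14.

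**Figure D5:**
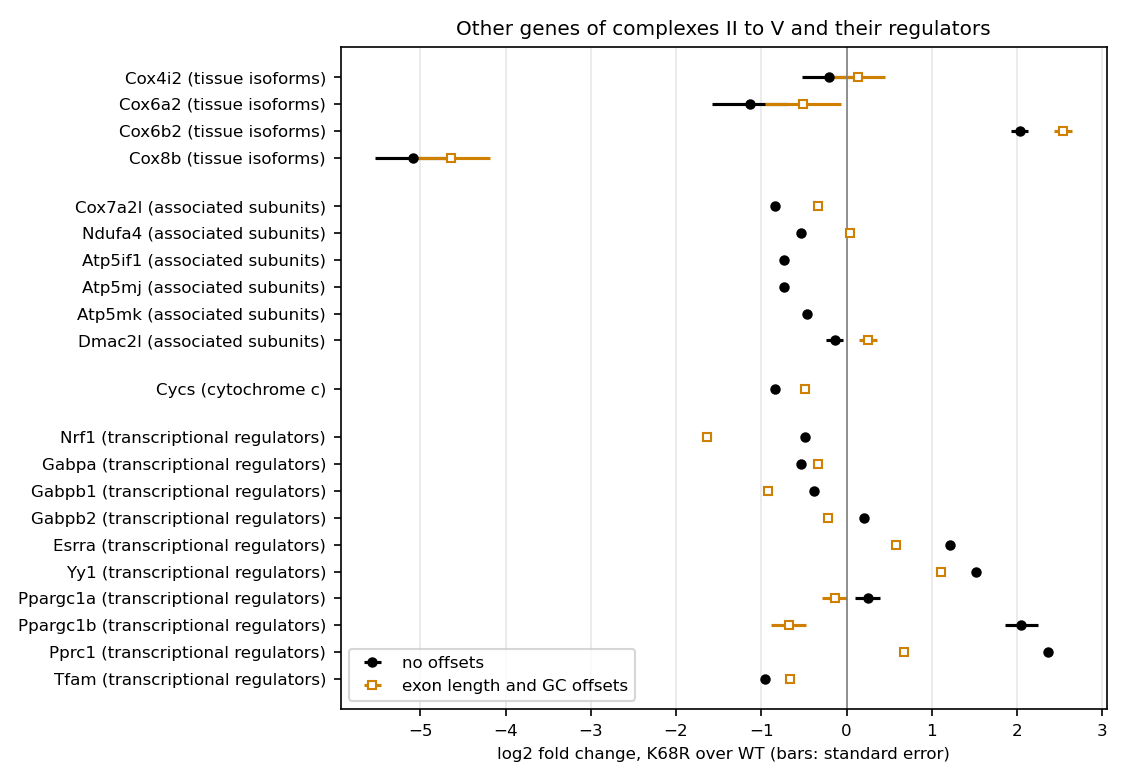
Log2 fold change (K68R over WT) with its standard error for tissue variants, associated subunits, cytochrome c and transcriptional regulators, without offsets (black circles) and with exon length and GC offsets (open orange squares, absent where no GC value was available). Cox6b2, Pprc1 and Yy1 lie above 0 under both, Cox8b lies at -5.09 and -4.64, and Nrf1, Gabpa and Tfam lie below 0 under both. Gabpb2 and Ppargc1b lie above 0 without offsets and below 0 with them.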

How the data were processed

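RNA was measured in 6 libraries, 3 per genotype, grouped by their titles. The deposited values are raw counts, in which each read pair adds 1 to a gene. Per the submitters' processing notes, HISAT2 2.2.1, featureCounts 2.0.6 and build mm39 were used. Per the file headers, featureCounts counted pairs over exons of a RefSeq annotation of mm39 with no strand option and without multi-mapped reads. A stranded kit was used, per the labels' protocols, but counting ignored strand, so reads of genes that overlap cannot be told apart, and near-identical copies can lose reads. Read trimming: not given in the sources used here.

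The test was that of edgeR 4.0.16 under R 4.3.3 (filterByExpr with a minimum count of 10, TMM, robust quasi-likelihood F test, no covariate), with calls at a Benjamini-Hochberg adjusted p below 0.05 among 16730 genes tested. Standard errors are the log2 fold change divided by the square root of F. CPM used TMM-scaled library sizes, and levels were divided by the exonic length in the table to compare genes. Without molecular identifiers, reads are not independent molecules, so intervals and floors describe counting error alone. For isoform ratios an exact permutation test (two-sided, 20 assignments) was used. The chi-square per gene between libraries was 1.86 to 2.33 within a genotype, above sampling noise, and 333 to 427 between genotypes. No library was thus a copy of another, and all 6 entered the test separately. These values do not show whether libraries of a genotype came from separate embryos or cultures. Every column was used.

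Alternatives were upper quartile normalization, DESeq2 size factors, leaving the filter out, a filter of 1 CPM in 3 libraries, DESeq2 1.42.0, voom of limma 3.58.1, a replicate block, a test against 1.5-fold, leaving out each library, genes under 2000 exonic bases only, and offsets for exon length and GC content, taken from a surface that mgcv 1.9.3 fitted to each library. GC content was pooled over the coding transcripts of each gene in GENCODE M21, joined by symbol, with no coordinates of that build used. A value was found for all 38 members, of which 15 matched by an earlier symbol, and for 15668 tested genes (93.7%). Values with offsets may depend on how GC content is taken, and other ways were not tried. The fit was tested on simulated data.

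The members, gene lists and alternatives were chosen with earlier results of these data known. The rule named all 38 members, Sod2, every tissue variant, associated subunit, cytochrome c and mitochondrially encoded gene, and up to 3 called genes with the smallest p in each list of assembly factors and of regulators. Values in every library were given for the 3 largest and 3 smallest changes and the highest level of each complex, and for others chosen after their values were seen.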

Additional observations from a re-analysis of the deposited data

How the results depend on the processing

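All 38 subunits stayed lower under upper quartile normalization, DESeq2 size factors, no filter, a filter of 1 CPM in 3 libraries, DESeq2, limma-voom, the replicate block and each left-out library. The median log2 fold change was -0.56 to -0.62 without 1 library, -0.70 with upper quartile normalization, -0.13 with exon length and GC offsets and -0.15 among genes under 2000 exonic bases scaled by themselves. Among those short genes, 2808 genes were called in all, 23 members were lower and 4 higher, with 2 lower in complex II and 5 in complex IV, and 18 other genes of the complexes were called. Fewer members enter that fit, since 34 are short enough. Against the 1.5-fold bound, 6855 genes were called, with 15 members lower, of which 1 was in complex II, 3 in complex III, 3 in complex IV and 8 in complex V, and 18 other genes of the complexes. The log2 fold change of Sod2 was the same there, -0.57, and missed the threshold (adjusted p = 0.692, edgeR). With offsets 3 members were higher and 5 of complex IV lower.

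Turns of sign are listed here only for the genes that the rule named and for the isoform ratios. Other genes turned too with offsets, some of them further, such as Ppargc1b (2.05 to -0.68) and Cox19 (-0.13 to 0.48). With offsets the sign turned for Uqcrh (0.05), Uqcr10 (0.06), Cox4i1 (0.13), Cox6b1 (0.05), Cox6c (0.13), Atp5f1b (0.01), Atp5f1e (0.01), Atp5pd (0.11), Atp5mf (0.01), Cox4i2 (0.14), Ndufa4 (0.04), Dmac2l (0.25) and Sdhaf1 (0.07). Among short genes alone it turned for Uqcrc1 (0.23), Cox4i1 (0.08), Cox8a (0.10), Atp5f1b (0.09), Cox4i2 (0.23), Sdhaf1 (0.05), Atpaf1 (0.04), COX1 (0.22), ATP6 (0.01) and ATP8 (0.38). Leaving out 1 library turned low genes only: Cox4i2 ranged from -0.54 to 0.14, COX3 from -0.38 (called without the first K68R library, adjusted p = 0.021, edgeR) to 0.44, ATP8 from -0.28 to 0.08, and the log2 ratio of Cox4i2 to Cox4i1, K68R minus WT, from -0.187 to 0.534. The cause was not tested.

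Replicate numbers are shared by the genotypes, and the labels do not say whether they pair the libraries. Over all genes tested, deviations of same-numbered libraries correlated at -0.009, 0.013 and 0.013. A pairing that touches only some genes would not show there. With the replicate block 38 of 38 members were lower, with a median of -0.58, 13567 genes were called, and ATP6 became called at -0.47 (adjusted p = 9.54e-04, edgeR). Depth did not limit the 38 members, but Cox4i2, Cox6a2, Cox8b, Cox7a1 and ATP8 lay near or under a few CPM, where 1 library can decide a value.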
